A study of Mus musculus with 99 samples.

Results

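The ventral tegmental area (VTA), a dopamine cell group in the floor of the mouse midbrain, was compared with 4 other regions in libraries from water-exposed mice. The 9 VTA libraries were chosen by their labels and by a minimum of 10000 genes with a count, out of 20 VTA libraries and 99 libraries in all. They were set against 10 libraries of the ventrobasal thalamus (VBT), 9 of the primary somatosensory cortex (S1), 10 of the prelimbic cortex (PrL) and 10 of the nucleus accumbens (NAc), each region against VTA separately. All mice were wild-type juvenile offspring of C57BL/6 dams, of both sexes. Water dams drank plain water, and the dams of the 50 fentanyl libraries, in which the same genes were checked, drank fentanyl, an opioid, at 10 µg/ml from embryonic day 0 until weaning. The labels name neither the animal nor the litter of a library, so p-values measure the spread between these libraries. Each library came from a tissue punch of many cells, in which fewer cells of a type and less RNA per cell cannot be told apart.

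Dopamine neurons make dopamine from tyrosine with tyrosine hydroxylase (Th) and DOPA decarboxylase (Ddc), load it into vesicles with Slc18a2 and take it back up with the dopamine transporter Slc6a3. In the embryo the floor of the midbrain is patterned by the forkhead factors Foxa1 and Foxa2 and the homeodomain factors Lmx1a, Lmx1b, En1 and En2, several of which the adult neurons keep. VTA dopamine neurons project to the nucleus accumbens and the prefrontal cortex and are known for their part in reward. GABA and glutamate neurons lie among them, and the serotonin neurons of the raphe, the interpeduncular nucleus, the red nucleus and the mammillary body lie close by.

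The 250 bases before an annotated transcription start of 3 genes higher in VTA are shown because each holds a short motif known from dopamine or midbrain floor genes. They are RefSeq sequences on GRCm38.p6, all on the minus strand and printed 5′ to 3′, and the 3 were picked after the matches were seen. The window of a second Ddc start (chr11:11890409-11890658) held none of the motifs searched, nor did the windows of Slc6a3 and En1, and of 3 Foxa2 windows 1 held a TATA box match alone and the others none. Capitals mark the cyclic AMP response element TGACGTCA in Th (chr7:142899996-142900245), the extended nuclear receptor site AAAGGTCA read on the other strand in Ddc (chr11:11898145-11898394), where it runs into a TATA box match TATAAA on the other strand, and the forkhead motif TGTTTAC on the other strand in Foxa1 (chr12:57546112-57546361).
Th: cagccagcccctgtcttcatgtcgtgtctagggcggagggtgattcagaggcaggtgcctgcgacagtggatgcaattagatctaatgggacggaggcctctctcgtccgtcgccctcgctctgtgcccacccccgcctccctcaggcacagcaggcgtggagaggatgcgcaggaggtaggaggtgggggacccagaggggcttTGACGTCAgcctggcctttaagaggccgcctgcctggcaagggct
Ddc: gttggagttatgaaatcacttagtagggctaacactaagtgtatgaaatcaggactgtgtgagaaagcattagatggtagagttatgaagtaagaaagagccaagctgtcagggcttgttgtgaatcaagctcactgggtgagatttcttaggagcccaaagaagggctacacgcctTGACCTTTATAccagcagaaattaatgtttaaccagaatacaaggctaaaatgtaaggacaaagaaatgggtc
Foxa1: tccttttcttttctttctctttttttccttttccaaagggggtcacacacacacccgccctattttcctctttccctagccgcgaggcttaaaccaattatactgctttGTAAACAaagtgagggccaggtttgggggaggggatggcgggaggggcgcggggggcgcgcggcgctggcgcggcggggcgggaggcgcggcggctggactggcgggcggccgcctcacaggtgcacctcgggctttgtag
Upstream windows were matched for 359 of the genes higher in VTA than in all 4 regions, for 180 of those lower, and for 13126 of all genes tested. Windows on the chromosome that carries Camk2a and Egr1 were not searched, so the shares leave out its genes. On either strand, TGACGTCA occurred in 2.51% of the higher genes, 3.33% of the lower genes and 2.79% of all genes, AAAGGTCA in 1.11%, 0.556% and 1.15%, and TGTTTAC in 3.34%, 1.11% and 2.81%. Some genes have several windows: counted by window, TGTTTAC stood in 27 of 473 windows of the higher genes (5.71%), which belong to 12 genes, and in 2.38% of all windows. The homeodomain core TAATTA was found in 4.46% of the higher genes, 11.1% of the lower genes and 3.65% of all genes, and TATAAA in 10.6%, 13.9% and 8.71%. The bicoid-type core TAATCC stood in 6.13%, 5.00% and 6.54% of the same sets. These matches describe the letters in the windows only.

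The 48 water libraries held 24434050 to 48417581 counts assigned to genes, the 9 VTA libraries among them 31682132 to 42351726, with 25291 to 27111 genes counted at least once. The library labelled VTA male water replicate 3 was left out: only 6333 genes had a count, and Th, Slc6a3, En1 and Foxa2 summed to 0.0606 CPM (counts scaled to a total over genes of 1000000) in it. Genes marking the thalamus summed to 2771 CPM in that library, against 460 to 824 CPM in the other VTA water libraries. Of 3 other libraries that stood apart, 1 was from VBT, and the 2 from PrL carried olfactory bulb genes. The number of genes called against all 4 regions was 828 with these 3 libraries and 863 without them, with 788 in common, and 853 when VTA male replicate 3 was included.

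The 4 genes used here to mark the VTA, Slc6a3, En1, Foxa2 and Th, were higher in VTA than in all 4 regions over the 9 libraries. None of the 4 compared regions lies in the midbrain, so these comparisons cannot tell the VTA from other midbrain tissue. Slc6a3, the dopamine transporter (ENSMUSG00000021609, chr13:73536747-73578672 on GRCm38) ran from 73.1 to 754 CPM in the VTA with a median of 487. Its highest value in the other 39 water libraries was 3.79 CPM, in PrL. The 2 groups did not overlap, and the smallest of the 4 log2 fold changes was 9.04 ± 0.44 (SE), against NAc (adjusted p = 7.31e-22). En1 (ENSMUSG00000058665, chr1:120602418-120607992), a homeodomain factor that midbrain dopamine neurons need to survive, ran from 16.8 to 54.4 CPM with a median of 40.4, and reached at most 0.224 CPM elsewhere. Its smallest log2 fold change was 8.45 ± 0.28 (SE), against VBT (adjusted p = 9.72e-29). Foxa2 (ENSMUSG00000037025, chr2:148042877-148046969) ran from 1.20 to 12.9 CPM with a median of 9.04. No Foxa2 count was found in any S1, PrL or NAc library and 1 count in VBT. Over all libraries of a region, 3 counts being the limit a count of 0 allows, Foxa2 was at least 1003-fold higher in VTA than in S1, at least 1075-fold higher than in PrL and at least 1018-fold higher than in NAc. These limits and the intervals below cover counting error only.

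Th (ENSMUSG00000000214, chr7:142892752-142931128) was high in VTA too, but its libraries overlapped with 1 other. It ran from 57.0 to 398 CPM in VTA, with a median of 316. The median was 6.32 CPM in NAc, 3.03 in VBT, 1.76 in PrL and 0.455 in S1. The lowest VTA library, female replicate 1, lay under the highest PrL library at 60.9 CPM, and the PrL library was 1 of the pair with olfactory bulb genes. The summed olfactory bulb list, which includes Th, reached 434 CPM in PrL, where the median was 34.9 CPM, and the part of olfactory bulb tissue in the Th level was not tested. The smallest log2 fold change of Th was 4.81 ± 0.57 (SE), against PrL (adjusted p = 6.27e-10). That comparison includes the pair of PrL libraries with olfactory bulb genes, at 60.9 and 29.5 CPM of Th.

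**Figure D1:**
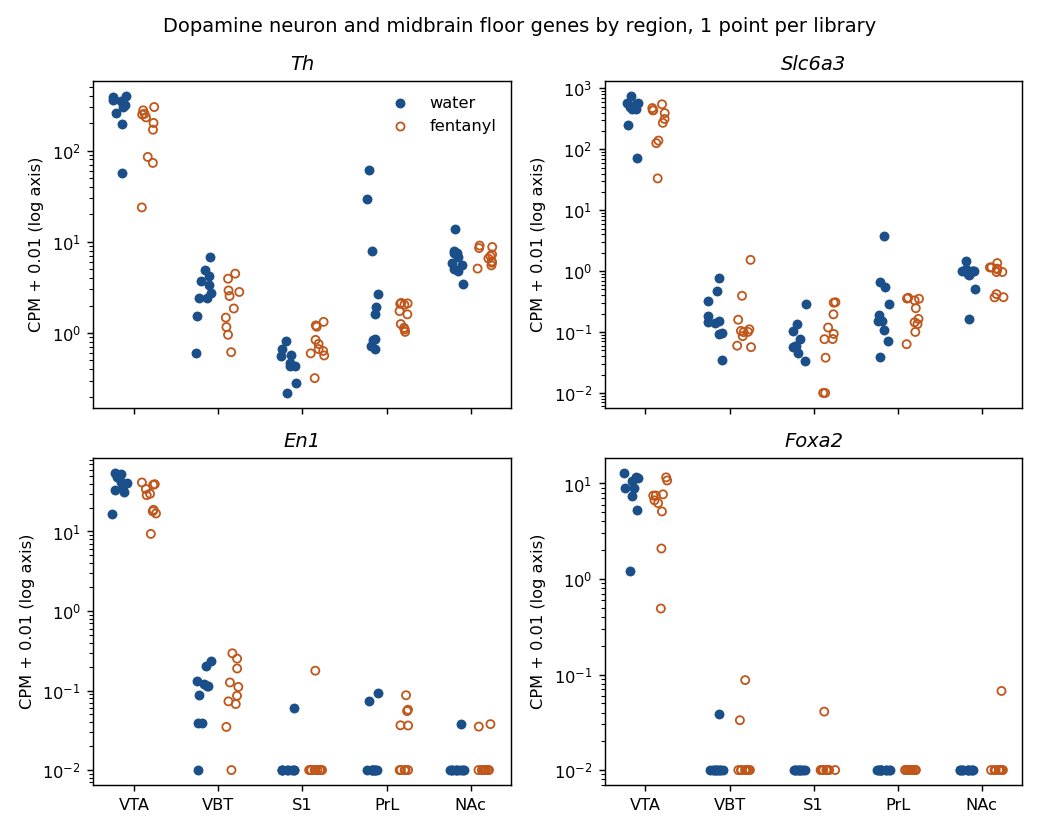
CPM plus 0.01 on a log axis for Th, Slc6a3, En1 and Foxa2 in 5 regions, 1 point per library, with water filled and fentanyl open. The 9 VTA water libraries sit above those of the other regions for Slc6a3, En1 and Foxa2, and for Th 1 VTA library at 57.0 CPM lies below 1 PrL library at 60.9 CPM.

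Against each region alone, between 1947 and 2477 genes were higher in VTA, out of 20216 genes tested. A gene was called where its adjusted p, corrected over all genes by Benjamini-Hochberg, was under 0.05 and its fold change was at least 2. Against VBT, 1947 genes (9.63%) were higher and 1148 (5.68%) lower. Against S1, 2477 (12.3%) were higher and 2330 (11.5%) lower. Against PrL the counts were 2475 (12.2%) and 2255 (11.2%), and against NAc 2229 (11%) and 2014 (9.96%). The genes called in the same direction against all 4 regions numbered 515 higher (2.55%) and 313 lower (1.55%). The 4 comparisons share the VTA libraries, so this is a rule for choosing genes and not 4 independent tests. With no fold minimum, 2052 genes (10.2%) were higher and 1738 (8.6%) lower against all 4.

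**Figure D2:**
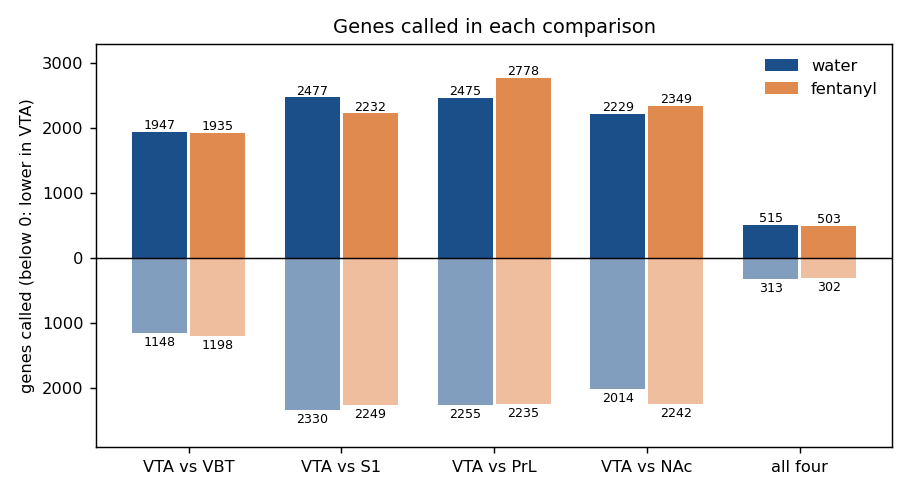
Number of genes called in each comparison, higher in VTA above the line and lower below it, for water and fentanyl libraries. The step from 1 region to all 4 leaves 515 higher and 313 lower genes in water, and 503 and 302 in fentanyl.

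Of the 515 genes, 416 code for proteins and 69 are long noncoding genes, and among the 313 these numbers were 200 and 71. Every VTA library lay above all 39 others in 275 of the 515, and below them in 150 of the 313. Over all genes tested, 776 (3.84%) had every VTA library above and 318 (1.57%) every VTA library below the rest. A mean of 10 CPM in VTA was reached by 165 of the 515 higher genes, 95 of the 313 lower genes and 10580 of the 20216 tested, and 102, 163 and 4678 stayed under 1 CPM. The median coefficient of variation among the VTA libraries was 29.8% for the higher genes and 38.7% for the lower ones, beside 15.2% for all genes tested. In 7 of the 515 genes a single library held over 50% of the summed VTA level. Dbh, the enzyme that turns dopamine into noradrenaline, was at 44.2 CPM in female replicate 1 and between 0 and 3.06 CPM in the other 8 VTA libraries. Slc6a5, the glycine transporter of glycinergic neurons, was at 123 CPM in the same library and between 2.01 and 30.5 CPM in the others. Myh6, a heart muscle myosin, was at 10.5 CPM in female replicate 5 and at most 0.321 CPM in the others. The other 4 were Cuedc1, Gm13394, Gm2026 and Vezf1.

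Genes that make, store and clear dopamine were higher in VTA for 6 of 12 tested: Th, Ddc, Gch1, Slc18a2, Slc6a3 and Maoa. Serotonin neuron genes were called higher in the same libraries too (below). The part of serotonin neurons in the levels of these 6 genes was not tested. Ddc ran from 224 to 451 CPM in VTA, with a median of 370, and did not exceed 23.0 CPM elsewhere. Slc18a2, the vesicular monoamine transporter, ran from 257 to 564 CPM with a median of 370, and the highest other library, in PrL, was at 4.62 CPM. Gch1, which makes the cofactor that Th needs, ran from 22.8 to 41.1 CPM and stayed at or under 2.10 CPM in the other regions. These groups did not overlap, and the smallest log2 fold changes were 4.50 for Ddc, 7.44 for Slc18a2 and 4.10 for Gch1, with adjusted p-values of 2.91e-28, 7.25e-22 and 2.73e-27. Maoa, which breaks monoamines down, differed less: its mean was 95.1 ± 10.4 CPM in VTA (SD, n = 9) and 37.1 to 43.1 CPM in the other regions. Aldh1a1, an aldehyde dehydrogenase of dopamine neurons, did not reach 2-fold against VBT (450 ± 95.8 CPM in VTA, SD, n = 9, and 241 ± 25.4 in VBT, SD, n = 10; log2 fold change 0.74 ± 0.21 (SE)). Per kilobase of exon, the highest VTA levels among the 12 genes were Qdpr, which recycles the cofactor of Th, at 195 CPM, Slc6a3 at 135, Th at 123, Aldh1a1 at 91.2, Ddc at 81.1 and Slc18a2 at 73.8 CPM.

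Of the transcription factors of midbrain dopamine neurons, 7 of 11 were higher than in all 4 regions: En1, En2, Foxa1, Foxa2, Lmx1a, Lmx1b and Pitx3. Lmx1b ran from 15.5 to 38.8 CPM in VTA and to at most 0.949 CPM elsewhere. Pitx3, which dopamine neurons of the substantia nigra need above all, ran from 0.663 to 5.64 CPM and to at most 0.227 CPM elsewhere. Lmx1a overlapped, since 1 VTA library was at 0.442 CPM and 1 VBT library at 3.72 CPM. Nr4a2, Otx2 and Sox6 were among the factors without a call against all regions. Nr4a2, an orphan nuclear receptor, had 61.0 ± 28.2 CPM in VTA (SD, n = 9) and 45.4 ± 12.7 CPM in S1 (SD, n = 9), a log2 difference of 0.34 ± 0.29 (SE; adjusted p = 0.305). Otx2 had 9.10 ± 2.46 CPM in VTA (SD, n = 9) and 7.62 ± 7.85 in VBT (SD, n = 10), where 1 library reached 29.5 CPM.

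Receptors and other modulators of dopamine neurons were higher in 8 of 13 tested. Ret, the receptor through which GDNF signals, ran from 97.7 to 468 CPM in VTA and from 35.7 to 58.7 CPM in VBT, the next highest region. Among the nicotinic receptor subunits, Chrna6 ran from 13.3 to 141 CPM with a median of 99.4, and the highest other library was at 2.29 CPM. Chrnb3, its usual partner, ran from 12.8 to 89.6 CPM, and from 2.89 to 5.88 CPM in S1, the next highest region. Chrna5 ran from 13.2 to 34.4 CPM in VTA and did not exceed 3.43 CPM elsewhere. Over the whole nicotinic family, a list completed after values were seen, 6 of 12 tested subunits were higher in VTA. The neurotensin receptor Ntsr1, the neurokinin receptor Tacr3, the synuclein Sncg and the transporter-like Slc10a4 were the other called members of the modulator list. The autoreceptor Drd2 was lower in VTA than in NAc, with 49.8 ± 14.2 (SD, n = 9) and 106 ± 30.7 CPM (SD, n = 10), and higher than in the other 3 regions.

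Neuropeptides followed no single direction. Of 10 listed, Ucn was higher and Cck lower than in all 4 regions. Ucn, a peptide of the Edinger-Westphal nucleus, ran from 0.0316 to 12.6 CPM among the VTA libraries with a median of 0.945. Cck ran from 4.42 to 47.4 CPM in VTA and had a mean of 31.1 ± 14.7 CPM (SD, n = 9), beside 71.6 ± 35.1 in NAc and 240 ± 45.8 in PrL (SD, n = 10 each).

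Slc17a7, the vesicular glutamate transporter of cortical and many thalamic neurons, ran from 1.43 to 13.7 CPM in VTA with a median of 4.25. In VBT it ran from 166 to 480 CPM, and the means were 1114 CPM in S1, 1506 in PrL and 617 in NAc. No VTA library overlapped with another region, and the log2 fold change nearest to 0 was -6.37 ± 0.32 (SE), against VBT (adjusted p = 2.07e-21). Slc17a8, the third vesicular transporter, was higher in VTA (71.2 ± 42.1 CPM, SD, n = 9) than in NAc (16.5 ± 5.42 CPM, SD, n = 10), with 1 VTA library at 13.9 CPM inside the NAc range. Slc17a6, the transporter of most subcortical glutamate neurons, had 257 ± 89.5 CPM in VTA (SD, n = 9) and 354 ± 99.2 in VBT (SD, n = 10), a log2 difference of -0.62 ± 0.25 (SE; adjusted p = 0.0362) short of 2-fold. Of 9 genes of midbrain GABA neurons, 4, the transcription factors Gata2, Gata3, Tal1 and Sox14, were higher than in all 4 regions. Nkx2-2, also a transcription factor on this list, was not called. Its log2 difference against VBT was 0.05 ± 0.11 (SE; adjusted p = 0.732). Gata3 ran from 9.19 to 28.9 CPM in VTA and to at most 1.13 CPM elsewhere. Gad1, which makes GABA in all such neurons, had 340 ± 101 CPM in VTA and 317 ± 57.7 in S1 (SD, n = 9 each), and its log2 difference was 0.03 ± 0.23 (SE; adjusted p = 0.916).

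Genes of cells that lie next to the VTA were called too. Of 5 serotonin neuron genes, Tph2, Slc6a4 and Fev were higher in VTA than in all 4 regions. Slc6a4, the serotonin transporter (ENSMUSG00000020838, chr11:76998603-77032340), ran from 12.4 to 220 CPM with a median of 99.9, and reached 0.330 CPM at most elsewhere. Tph2, which makes serotonin in neurons, ran from 22.3 to 372 CPM with a median of 186, and from 1.21 to 2.75 CPM in S1, the next highest region. Fev, a transcription factor of serotonin neurons, ran from 0.968 to 12.5 CPM. Of 9 tested genes of the red nucleus, interpeduncular nucleus, subthalamic nucleus and mammillary body, 8 were higher, among them Pou4f1, Chrna2, Chrna3, Chrnb4, Lhx1, Lhx5 and Foxb1. Foxb1 ran from 2.47 to 29.3 CPM, so its level differed widely between VTA libraries. Lhx1 ran from 13.9 to 25.4 CPM and Lhx5 from 10.7 to 25.7 CPM, with no overlap with other regions. Of the hindbrain Hox genes, 0 of 7 had enough counts to be tested. The part that the amount of neighbouring tissue in a punch had in these levels was not tested.

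Ordered by the smallest of the 4 log2 fold changes, 15 genes led the higher set among protein-coding genes with a mean of at least 1 CPM in VTA, all with every VTA library above every other. They were Foxa2, Slc6a4, Pax7, Slc6a3, Pou4f2, En1, Otp, Slc18a2, Crisp1, Lmx1b, Fev, Pax3, Chrna6, Tph2 and Gulo. Pax7, a paired-box factor of the embryonic midbrain and of muscle stem cells, ran from 19.7 to 47.6 CPM with a median of 32.6, and had at most 0.127 CPM elsewhere. Pax3, its close relative, ran from 2.59 to 9.10 CPM. Otp, a homeodomain factor known from the hypothalamus, ran from 18.0 to 47.6 CPM and had at most 0.232 CPM elsewhere. Pou4f2 ran from 0.852 to 3.23 CPM and was at least 277-fold higher than in S1 and at least 281-fold higher than in NAc, where no count was found. Crisp1, a secretory protein known from the epididymis, ran from 1.29 to 4.72 CPM and was at least 340-fold higher than in S1. Gulo, the last enzyme of vitamin C synthesis, ran from 5.30 to 17.3 CPM in VTA. In VBT it had 3 counts over 10 libraries, a ratio of 1368 with a 95% Poisson interval for the VBT count of 468 to 6633. A low-count gene enters the test only if nearly all 9 VTA libraries pass the filter, so a gene found in VTA alone had to differ to be listed.

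Several families of patterning factors held called genes, in lists completed after some members had been seen. All 6 Irx genes were higher in VTA, with Irx2 at 20.9 ± 2.84 CPM (SD, n = 9) in VTA and 3.47 ± 0.954 CPM (SD, n = 10) in VBT, the next highest region. Of 6 tested Pax genes, 5 were higher (Pax2, Pax3, Pax5, Pax7 and Pax8), and of 4 Ebf genes 3 were. Conversely, all 4 tested Dlx genes, which specify forebrain GABA neurons, were lower. Dlx1 had 0.842 ± 0.659 CPM in VTA (SD, n = 9) and 11.3 ± 5.70 CPM in VBT (SD, n = 10), where it was lowest among the others. Among GABA-A receptor subunits, 2 of 14 were higher (Gabre and Gabrq) and 2 lower (Gabra4 and Gabrd). Gabrq ran from 32.6 to 69.6 CPM in VTA and did not exceed 9.09 CPM in the other regions.

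Among protein-coding genes with a mean of at least 1 CPM in each other region, those lower in VTA were led by Slc17a7, Gabrd, Ankrd63, Ptk2b, Dlx5, Krt12, Rasgrp1, Dlx1, Dlx2 and Dlx6. In 9 of these 10 every VTA library lay below every other library, and Ankrd63 was the exception. Gabrd (ENSMUSG00000029054, chr4:155384980-155398112), a GABA-A subunit of receptors outside synapses, ran from 0.158 to 1.49 CPM in VTA with a median of 0.673. Its lowest value elsewhere was 34.9 CPM, in PrL, and the log2 fold change nearest to 0 was -5.98 ± 0.20 (SE; adjusted p = 1.00e-28). Ptk2b (ENSMUSG00000059456, chr14:66153257-66281052), a calcium-activated tyrosine kinase, ran from 4.74 to 13.1 CPM in VTA and from 148 to 554 CPM elsewhere. Rasgrp1, an activator of Ras, ran from 15.5 to 52.3 CPM in VTA and from 375 to 865 CPM elsewhere. Krt12 had 0.131 ± 0.0445 CPM in VTA (SD, n = 9) and 2.48 ± 0.900 in NAc (SD, n = 10). Krt12, Dlx1 and Dlx6 overlap a noncoding gene on the other strand, and Slc17a7 a microRNA gene on its own strand, so reads of the partners may not have been told apart. The same holds for Slc6a4, Slc18a2, Lmx1b, Ddc, Gad1 and other genes described above that overlap a gene on the other strand, and for Pitx3 and Gabra4, whose partners Elovl3 and Gabrb1 code for proteins.

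Of 14 telencephalic genes, all 14 were lower in VTA than in S1, 13 lower than in PrL, 12 lower than in NAc and 5 lower than in VBT, while 3 were higher than in VBT, Neurod6 (log2 fold change 3.79) and Neurod2 (2.36) among them. Those 5, with Tbr1, Lhx2, Slc17a7 and Camk2a among them, were lower against all 4 regions. Camk2a, a kinase of excitatory synapses, ran from 104 to 246 CPM in VTA and from 612 to 955 CPM in VBT, without overlap. Of 12 striatal genes, 12 were lower than in NAc, but 2, Drd1 among them, were lower than in all 4 regions, while 5 were higher than in S1 and 4 higher than in PrL. In fentanyl Drd1 was not called, with a log2 fold change of -0.50 against VBT. Of 12 thalamic genes, 10 were lower than in VBT, while 7 were higher than in S1, 8 higher than in PrL and 7 higher than in NAc. Calb2 (calretinin), which is on that list, was higher in VTA than in every region (202 ± 55.9 CPM, SD, n = 9), while Ramp3 was lower than in every region (1.91 ± 0.442 CPM, SD, n = 9).

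Families of the excitatory synapse and of activity-regulated genes, completed after some members were seen, held genes lower than in all 4 regions and none higher than in all 4. All 4 tested members of the Egr and Arc group were lower in VTA. Egr1, an immediate early gene, ran from 9.94 to 17.9 CPM in VTA and from 33.6 to 62.8 CPM in VBT. Arc had 19.8 ± 4.79 CPM in VTA (SD, n = 9) and its range overlapped that of VBT (16.2 to 58.0 CPM). Of 7 NMDA receptor genes, Grin2a and Grin2b were lower. Grin2b ran from 118 to 173 CPM in VTA and from 345 to 632 CPM in VBT. Of the 7 NMDA receptor genes, 3 were higher than in S1 and 2 each higher than in PrL and NAc. Among 10 Camk kinases 4 were lower than in all 4 regions, and among 7 Shank and Dlgap scaffold genes 3 were. Camk1g and Dlgap2 were higher in VTA than in VBT, with log2 fold changes of 2.17 and 1.23.

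Among non-neuronal cells, the myelin list had 14 of 14 genes higher in VTA than in S1 and in PrL and 13 higher than in NAc, and 0 higher or lower than in VBT. Its median log2 fold change was 2.39 against S1, 3.86 against PrL, 1.51 against NAc and -0.40 against VBT, where the median over all genes tested lay between 0.01 and 0.05 in the same comparisons. Mbp, a structural protein of myelin, had 7580 ± 1842 CPM in VTA (SD, n = 9), 9075 ± 2877 in VBT and 460 ± 248 in PrL (SD, n = 10 each). Lists of oligodendrocyte precursors, astrocytes, microglia, endothelium, choroid plexus, ependyma and blood had 0 called members against all 4 regions, and lists this short would hold few or none at the shares of all genes tested (2.55% higher, 1.55% lower). Meningeal genes had 2 of 6, Dcn and Igf2. Of 7 smooth muscle and elastic fibre genes, a list added after values were seen, 6 were higher. Their summed level ran from 76.9 to 358 CPM in VTA and from 38.3 to 107 CPM in S1, where the highest library of the other regions lay.

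**Figure D3:**
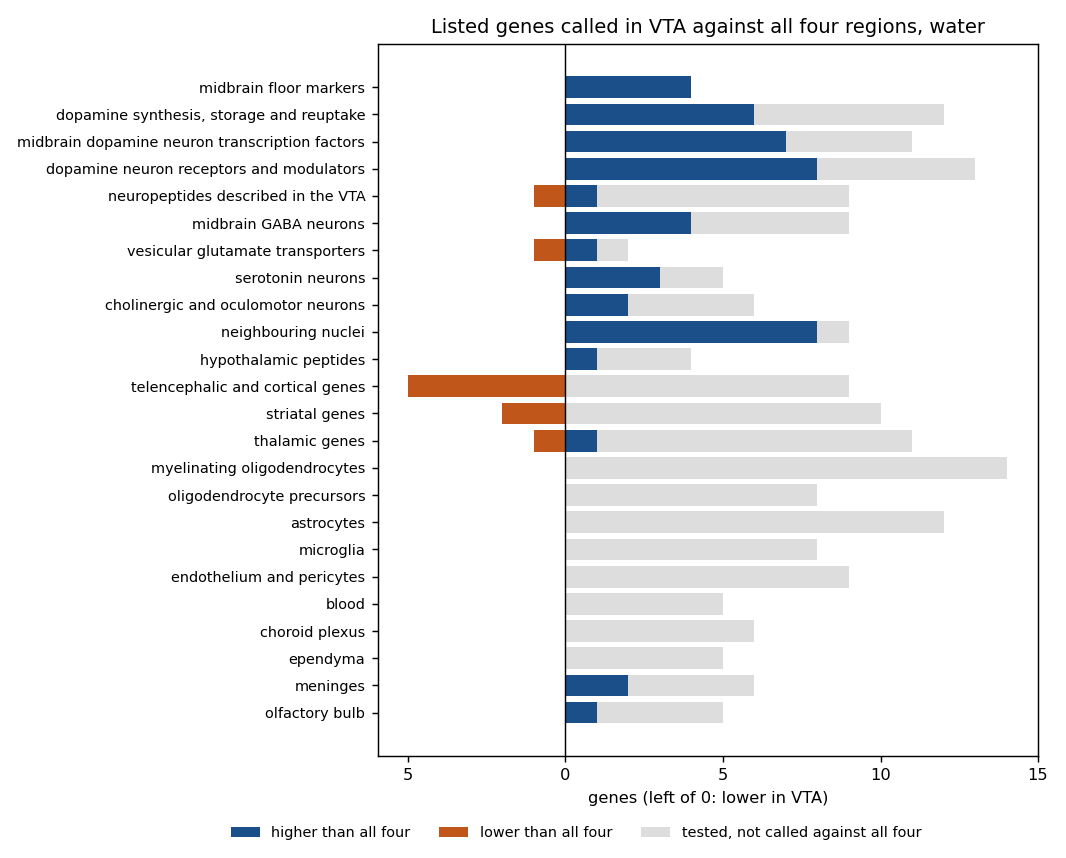
Genes of each list called higher (blue) or lower (orange) in VTA than in all 4 regions in water, with the other tested genes in grey; the families completed after values were seen and the untested Hox list are not drawn. The modulator list (8 of 13) and the neighbouring nuclei (8 of 9) hold the most higher calls, and the telencephalic list the most lower calls (5 of 14).

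Summed levels of the marker lists differed between the 9 VTA libraries. The summed level of Th, Slc6a3, En1 and Foxa2 ran from 148 CPM in female replicate 1 to 1164 CPM in female replicate 3, with a median of 889. Female replicate 1 was also the library with Dbh and most Slc6a5, and its serotonin list summed to 553 CPM. Across libraries the serotonin list ran from 106 CPM in male replicate 4 to 722 CPM in male replicate 2. The choroid plexus list was at 1045 CPM in male replicate 2 and 392 CPM in female replicate 5, and at or under 50.6 CPM in the other 7. The myelin list ran from 19580 to 35260 CPM. Without female replicates 1 and 5 and male replicate 2, an alternative added after seeing the data, 580 genes were higher and 298 lower, and 752 of the 828 calls were shared.

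**Figure D4:**
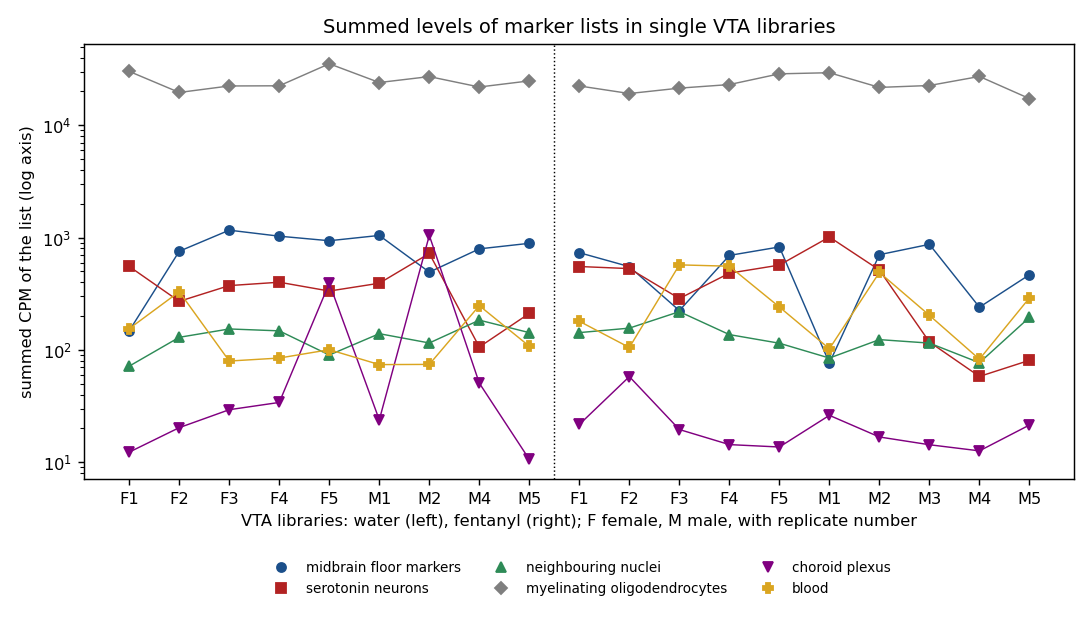
Summed CPM (log axis) of 6 marker lists in each VTA library but male water replicate 3, water on the left and fentanyl on the right, labelled by sex and replicate number. The midbrain floor list is lowest in female replicate 1 among the water libraries (148 CPM) and in male replicate 1 among the fentanyl libraries (76.4 CPM), and the choroid plexus list is highest in male replicate 2 of the water libraries (1045 CPM).

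The sexes were also fitted apart. The 5 female VTA libraries with the other female libraries gave 454 higher and 315 lower genes, and the 4 male ones 503 and 237. Of the 828 genes called with both sexes, 679 were called in females and 629 in males. A test of the difference in the VTA offset, which is VTA minus the mean of the other 4 regions, between the sexes called 0 of 20216 genes by edgeR, and 1309 genes had an unadjusted p under 0.05. DESeq2 called 4 genes.

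In fentanyl libraries, which came from other animals, the same rule gave 503 genes higher (2.5% of 20121 tested) and 302 lower (1.5%). With no fold minimum the shares were 11.3% and 11.4%. Single regions gave higher calls of 9.62% (VBT), 11.1% (S1), 13.8% (PrL) and 11.7% (NAc), and lower calls of 5.95%, 11.2%, 11.1% and 11.1%. Every fentanyl VTA library lay above all other fentanyl libraries in 4.2% of the genes and below them in 1.92%. The higher lists shared 374 genes, which is 72.6% of the water list and 74.4% of the fentanyl list. The lower lists shared 208, or 66.5% and 68.9%. A refit of the fentanyl libraries on the genes tested in water, added after seeing the data, gave 530 higher and 303 lower genes. Of the 515 genes higher in water, 405 were then called, 481 had an adjusted p under 0.05 against all 4 regions at any fold, and 510 had the same sign in all 4 comparisons. Of the 313 lower genes these numbers were 209, 250 and 301, and 0 of the 828 were called in the opposite direction. All 15 named higher and all 10 named lower genes were called in that refit. The filter on the fentanyl libraries alone had left 478 of the 515 higher genes tested, without Pou4f2, Crisp1 and Fev. For Fev, Tph2, Slc17a7 and Ankrd63 the fentanyl VTA libraries overlapped those of other regions.

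**Figure D5:**
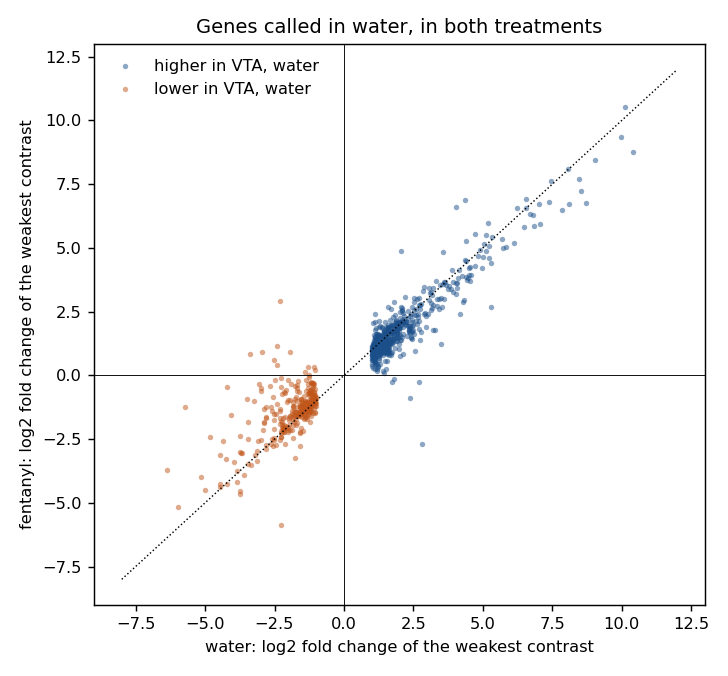
The 828 genes called in water, with values in water (horizontal) and in fentanyl (vertical) and a dotted line of equality. Shown is the lowest of the 4 log2 fold changes for higher genes (blue) and the highest for lower genes (orange). A fentanyl value past 0 has the opposite sign in some comparison. Most points lie near the line in both groups, and none of the 828 was called in the opposite direction in fentanyl.

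The marker levels of fentanyl VTA libraries overlapped those of water. Th ran from 23.8 to 301 CPM in fentanyl with a median of 216, Slc6a3 from 33.3 to 549 CPM with a median of 354, and Foxa2 from 0.481 to 11.6 CPM with a median of 7.06. En1 ran from 9.31 to 41.3 CPM in fentanyl, with a mean of 27.5 CPM, beside a mean of 39.5 CPM in the water VTA libraries. The summed level of these 4 marker genes ran from 76.4 to 871 CPM. None of the 4 was called in a test of the difference in the VTA offset between fentanyl and water. That test called 4363 of 20328 genes, 1818 with a larger offset in fentanyl (8.94%) and 2545 with a smaller one (12.5%). Offsets for GC content left 809 calls, and leaving out 6 VTA libraries that stood apart left 2803. Among the genes called in water, 19 of 515 higher genes and 28 of 313 lower genes were called (3.69% and 8.95%, beside 21.5% of all genes tested). All 19 had smaller offsets in fentanyl, and of the 28 lower genes 23 had larger offsets. Since these genes were chosen in the water libraries that also enter the difference, the shares and directions are given as a description. Of the 19, Dbh, Gm13394, Gm2026 and Vezf1 each had over 50% of their summed VTA water level in a single library. Dbh, with 92.8% in female replicate 1, reached at most 0.513 CPM in fentanyl VTA libraries. Ache, the enzyme that breaks acetylcholine down, was also among the 19, with 244 ± 24.6 CPM in water (SD, n = 9) and 195 ± 15.6 CPM in fentanyl VTA libraries (SD, n = 10), a log2 difference in offset of -0.45 (adjusted p = 6.31e-06).

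Blood genes differed between the treatments' VTA libraries. The 5 genes of this list were called higher than in all 4 regions in fentanyl and 0 were in water. Their summed level ran from 74.0 to 330 CPM in the 9 water libraries and from 82.6 to 572 CPM in the 10 fentanyl libraries, so the ranges overlapped. The difference in offset was called for 4 of the 5. Hbb-bs, a beta globin, had 73.0 ± 49.9 CPM in water (SD, n = 9) and 161 ± 110 CPM in fentanyl (SD, n = 10). Globin genes are near-identical copies, so single members are uncertain. Whether blood left in the punches had a part in other differences between the treatments was not tested.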

How the data were processed

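The authors deposited raw read counts per Ensembl gene, 1 file per library, and HTSeq and build GRCm38 are named per the submitters' processing notes. The aligner, annotation release and strand setting are not given in the sources used here. Per the labels, each library started from 10 ng of RNA (SMART-Seq v4), and its reads carry no molecular identifiers. Reads outside genes (9.48% to 17.0% of each library) were left out. Symbols and positions came from GENCODE M21 for 55154 of 55335 identifiers.

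edgeR 4.0.16 (R 4.3.3; quasi-likelihood test, robust, TMM, filterByExpr by region) fitted region and sex over the 48 water libraries, over the 50 fentanyl libraries, and over all 98 for the treatment difference. Genes were called at an adjusted p under 0.05 and at least 2-fold, and differences of offsets at an adjusted p under 0.05. CPM used the total over genes. The steps were tested on simulated data. Named genes were, among protein-coding calls, the 15 higher genes (at least 1 CPM in VTA) and the 10 lower genes (at least 1 CPM in each other region) with the largest weakest log2 fold change, and list members, some of which are not reported here. The regions, genes and lists were chosen with earlier results of these data known. Alternatives changed the tool (DESeq2 1.42.0), scaling, filter, fold minimum, GC offsets, replicate block and libraries.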

Additional observations from a re-analysis of the deposited data

Results flagged for a closer look

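In the 9 VTA water libraries, single libraries lay far from the rest for 2 of the named genes and 3 of the lists. Of 51 genes and lists looked at, 5 had such a library, and chance gives 1 in 20, or 2.55. Pou4f2 was lowest in female replicate 1, at 0.852 CPM. The same library had the highest sum of hindbrain Hox genes, 0.631 CPM, and the lowest sum of microglia genes, 236.6 CPM. Slc17a7 was highest in female replicate 4, at 13.7 CPM. The choroid plexus genes were highest in male replicate 2, at 1045 CPM.

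The VTA offset differed between fentanyl and water for 4363 genes, and 3 of the named genes were among them. Slc17a7 had a difference of 2.71 on the log2 scale (adjusted p = 3.00e-06), with a mean of 5.14 CPM in water and 32.0 CPM in fentanyl VTA libraries. Its fentanyl values ran from 5.42 to 149 CPM with a median of 10.6, and the highest was in female replicate 3, which also had the highest Hox sum, 14.6 CPM. Gabrd had a difference of 0.68 (adjusted p = 0.0218) and Rasgrp1 one of 0.58 (adjusted p = 0.0204). All 3 remained lower in VTA than in the 4 other regions in fentanyl. The part of tissue outside the VTA in these differences was not tested.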

How the results depend on the processing

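The number of genes called against all 4 regions in water (828) stayed within 1.5 times under DESeq2 (826), DESeq2 size factors (825), GC offsets (833), no count filter (1104), the inclusion of VTA male replicate 3 (853), and each library left out in turn (811 to 853). It was 452 with a mean count of at least 50, 447 with a test against 2-fold (glmTreat), 3790 at any fold and 295 at 4-fold. In fentanyl (805), these settings gave 439, 383, 4573 and 235, no filter gave 1244, and leaving out libraries 792 to 843. Against VBT the counts were 1772, 1817, 11002 and 1164, and 3000 to 3243 without 1 library. Against S1 they were 2788, 3150, 13993, 1883, and 7581 with no filter (4775 to 4932 without 1 library). Against PrL they were 2811, 3111, 13781, 1899 and 7231 (4664 to 4824), and against NAc 2411, 2601, 13386, 1465 and 6587 (4125 to 4343). By construction, a stricter filter or fold leaves fewer genes.

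The treatment difference (4363) fell to 809 with GC offsets (262 up, 547 down), 1905 with VTA male water replicate 3 and 2803 without the 6 VTA libraries that stood apart, and ran from 3572 to 5036 without 1 VTA library. The sex difference (0) was 4 under DESeq2, 228 with VTA male replicate 3, and 0 to 26 without 1 VTA library (26 without female replicate 5). The cause was not tested. Of the 25 named genes, Pax3, Fev, Pou4f2 and Crisp1 were not tested at a mean count of at least 50. Under the alternatives in which a named gene was tested, Dlx1 alone lost its call, at -1.18 with VTA male replicate 3. The median of all genes moved by less than 0.1 under each scaling.

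For each gene, the mean of its group (region and sex) was taken from the log2 CPM of each water library. These deviations were correlated between libraries of the same sex and different regions. Deviations of same-numbered libraries correlated at 0.0514 on average, with 29 of 92 pairs over 0.1, and others at -0.0126, with 37 of 369. The labels state no pairing, so the libraries were not treated as paired, though same-numbered pairs lay higher on average. Whether same-numbered libraries share an animal or a batch was not tested. With a replicate block the counts were 837 in water, 801 in fentanyl, 3138 against VBT, 4868 against S1, 4761 against PrL, 4267 against NAc, 4267 for the treatment difference and 0 for the sex difference.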

Other observations

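In the library labelled VTA male water replicate 3, which was left out of the comparisons except as an alternative, the Irx and Pax lists and the genes of neighbouring nuclei summed to 0 CPM. Slc17a7 was at 471 CPM in it, and the choroid plexus gene Ttr at 705 CPM.

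Among the fentanyl VTA libraries, male replicate 4 had the highest Cartpt level, 419.6 CPM, and the lowest Pax7 level, 2.15 CPM. Cartpt, a peptide found in the Edinger-Westphal nucleus among other places, ran from 2.24 to 193 CPM in the water VTA libraries and reached at most 0.868 CPM in the water VBT libraries. In NAc it ran from 15.3 to 50.6 CPM and was not called against VTA (log2 fold change 0.86 ± 0.39 (SE), adjusted p = 0.0533). Male replicate 1 had the lowest midbrain floor sum, 76.4 CPM, and the highest serotonin sum, 1012 CPM.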
